A study of Mus musculus with 40 samples.

Results

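Primitive endoderm genes are described here by 9 genes that are commonly used to follow this lineage in mouse embryonic stem (ES) cells: Gata4, Gata6, Sox7, Sox17, Foxa2, Hnf4a, Dab2, Afp and Ttr. The genes were chosen by name, and their probes were found through the accession attached to a probe, through an identical probe on another array design, or through the study's gene tables. Of the 9 genes, 8 had a probe. No probe was matched to Gata4, which was not analysed here. The arrays held 21052, 42006 and 41006 gene probes in the 3 designs, of which 11722, 16920 and 17259 carried a gene symbol.

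ZHBTc4 ES cells (strain 129/Ola), in which both endogenous copies of Pou5f1 are inactivated and the gene is expressed from a transgene that tetracycline (Tet) shuts off, were measured over 2 time courses of Tet, both in medium with LIF by the study's methods. The late course held 18 arrays, 3 each before Tet (0 hr) and daily from 24 to 120 hr, and the early course 10 arrays, 2 each at 0 hr and after 3, 6, 12 or 24 hr. Every group of both courses, 0 hr included, carries the same gene inactivation and transgene, and the line is a single clone. In the third set, 4 lines without a Tet system were cultured for 3 days with LIF, without LIF or with LIF and 1 µM retinoic acid (RA), with 1 array for each line and medium (12 arrays). The lines were a clone with Nanog on an integrated plasmid (Nanog/EF1#6, strain 129SvEv-Tac), a clone with Nanog on an episomal vector (strain 129Sv), and a parental line for each, ES 129.3 at passage 12 and MG1.19 at passage 5, matched by strain. Each transgene is thus represented by 1 clone. By the study's methods MG1.19, from which the episomal clone was made, expresses the large T antigen of polyoma virus. All values are log2(Cy3/Cy5), where Cy3 is the sample and Cy5 a reference RNA common to all arrays, so a value compares a gene only with itself on other arrays. The labels do not say whether replicates were separate cultures, and p-values measure the spread between these arrays. RNA came from whole cultures, so that a change in the share of cells expressing a gene and a change per cell cannot be told apart.

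The primitive endoderm is the layer of cells that forms on the inner cell mass of the blastocyst and later gives rise to the parietal and visceral endoderm of the yolk sac. GATA factors stand at the head of its program: forced expression of Gata4 or Gata6 turns ES cells into extraembryonic endoderm, and Nanog and Gata6 mark alternative fates in the early inner cell mass. Sox17, Sox7 and Foxa2 encode transcription factors that follow, Hnf4a encodes a nuclear receptor of the visceral endoderm, Dab2 an adaptor protein of endocytosis that is needed to position the endoderm layer, and Afp and Ttr are secreted products of mature visceral endoderm. RA is a classic inducer of endoderm-like differentiation in embryonal carcinoma cells.

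Each of the 8 genes was read by the same 60-base probe on all 3 designs. The first 30 bases of a probe are shown here, 5′ to 3′, for the genes other than Gata6 that passed the test in any comparison, to identify what was hybridized.
Sox7: agtcccggatggatattaataatctcgtga
Sox17: gttttaaatgccttgagggacttgctcccc
Foxa2: tccaggtctcgggtctgatttaatttatgg
Hnf4a: ctggactcctctcaagttgaagtcatcgtc
Dab2: tcattttcctgtctaggctaaagctaaact
Afp had a second probe on the early arrays and in the Nanog experiment. In RefSeq (build GRCm38.p6) Sox17 lies at chr1:4490928-4497426, Foxa2 at chr2:148042877-148046969, Hnf4a at chr2:163506811-163572907, Afp at chr5:90490714-90508907, Sox7 at chr14:63943706-63950732 and Dab2 at chr15:6299788-6440715. No sequence is shown for Gata6 and Ttr. The array files give no coordinates of the probes.

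Promoter windows of RefSeq, which run from 250 bases before to 50 bases after a start, were at hand for Foxa2 (3 windows), Hnf4a (2), Dab2 (2) and Afp (1). The letters AGATAA, on either strand, are a form of the sequence recognized by GATA factors. They occurred in 1 window each of Foxa2, Hnf4a and Dab2 and in no window of Afp, against 11.2% of all 32851 windows. The 30 bases around each match are given in the direction of the gene, with the match in capitals.
Foxa2, chr2:148045630-148045659 (minus strand): ctgttagccttgAGATAAtattaactttgt
Hnf4a, chr2:163506793-163506822 (plus strand): gaagaatcaataAGATAAccgggcggggtg
Dab2, chr15:6299791-6299820 (plus strand): attctctttggcTTATCTgctgtgcatttt
Counted from the start that its window belongs to, the match begins at position -183 for Foxa2, -52 for Hnf4a and 15 for Dab2, where it reads on the opposite strand. These starts need not be the ends of the genes as located above. The Foxa2 match lies inside the range of the gene, and the windows at chr2:148046920-148047219 and chr2:148045899-148046198 held none. The stretch shown for Hnf4a spans the first base of the gene as located above. Direct repeats of AGGTCA, the half-site of nuclear receptors, with 2 or 5 bases between them were in none of these windows and in 0.00913% of all windows each. These are matches of letters, and binding was not measured here.

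Median Cy3 signals over gene probes lay at 596 to 776 intensity units on the late, 595 to 672 on the early and 531 to 662 on the Nanog arrays, over a local background of 365 to 390. Pou5f1, the gene shut off by Tet, read 1.91, 2.40 and 2.04 at 0 hr of the late course and between -0.30 and 0.12 on all later arrays. On the early arrays a probe of Pou5f1 read 2.92 and 1.52 at 0 hr and -0.53 and -0.61 at 24 hr, whereas a brighter one read 3.97 and 3.97 at 0 hr and 3.46 and 3.38 at 24 hr. The Nanog probe was higher in the integrated clone than in its parental line in all 3 media (2.48 against 1.61 with LIF), but lower in the episomal clone than in MG1.19 in all 3 (1.28 against 1.91 with LIF). Where that probe lies in the transgenes was not determined. The titles of the late arrays were followed, although their treatment protocol is that of a different line.

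In the late course, Gata6 rose and then fell, Dab2 rose and stayed high, and the other 6 genes passed the test at no time. To be called, a gene needed both an adjusted p of at most 0.05 and at least a 1.5-fold difference, in either direction. Called at 1 or more times were 2 of the 8 genes, where 24.9% of all gene probes were called. At 48 hr, 2 of 8 were called (10.3% of all probes), at 72, 96 and 120 hr 1 of 8 (14.4%, 17.9% and 20.7%), and at 24 hr none of 8 (7.61% of all probes), with 3 of 8 at an unadjusted p under 0.05 by limma. The share of all probes at that unadjusted p was not counted, here or in later comparisons, so such a count shows no excess.

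Gata6 read -1.33, -1.38 and -1.46 at 0 hr, -0.81, -0.78 and -0.89 at 24 hr, then -0.71, -0.43 and -0.35 at 48 hr. It then read -1.20, -0.98 and -1.08 at 72 hr, -1.22, -1.21 and -1.23 at 96 hr, then -1.35, -1.30 and -1.30 at 120 hr. The arrays of 24, 48, 72 and 96 hr did not overlap with those of 0 hr, and those of 120 hr did. The change from 0 hr was 0.56 ± 0.08 (SE, n = 3 per time) at 24 hr, just short of 1.5-fold, with an adjusted p of 2.85e-05 by limma. It was 0.89 ± 0.08 at 48 hr (1.85-fold, adjusted p = 9.94e-08 by limma). From 48 to 120 hr Gata6 fell by 0.82 ± 0.08 (adjusted p = 2.07e-07 by limma), and it was the 1 gene of 8 called in that comparison, where 12.5% of all probes were called. At 120 hr the difference from 0 hr was 0.07 ± 0.08 (adjusted p = 0.486 by limma), but with the authors' table it was 0.28 (adjusted p = 0.0318 by limma) and with Cy3 alone 0.35 (adjusted p = 0.00756 by limma). With the processed signals of the scanner software it was on the other side of 0, at -0.15 (adjusted p = 0.137 by limma).

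Dab2 read -1.15, -1.02 and -1.30 at 0 hr and -0.59, -0.69 and -0.92 at 24 hr. At 48 hr it read -0.32, -0.45 and -0.34, and at 120 hr -0.56, -0.30 and -0.31. No array of a later time overlapped with those of 0 hr. The change was 0.78 ± 0.10 at 48 hr (1.72-fold, adjusted p = 5.6e-06 by limma). On the next days it was 0.67 ± 0.10 and 0.81 ± 0.10, and by 120 hr it was 0.77 ± 0.10 (1.70-fold, adjusted p = 3.41e-06 by limma). Unlike Gata6, Dab2 was not lower at 120 hr than at 48 hr (difference -0.02 ± 0.10).

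**Figure D1:**
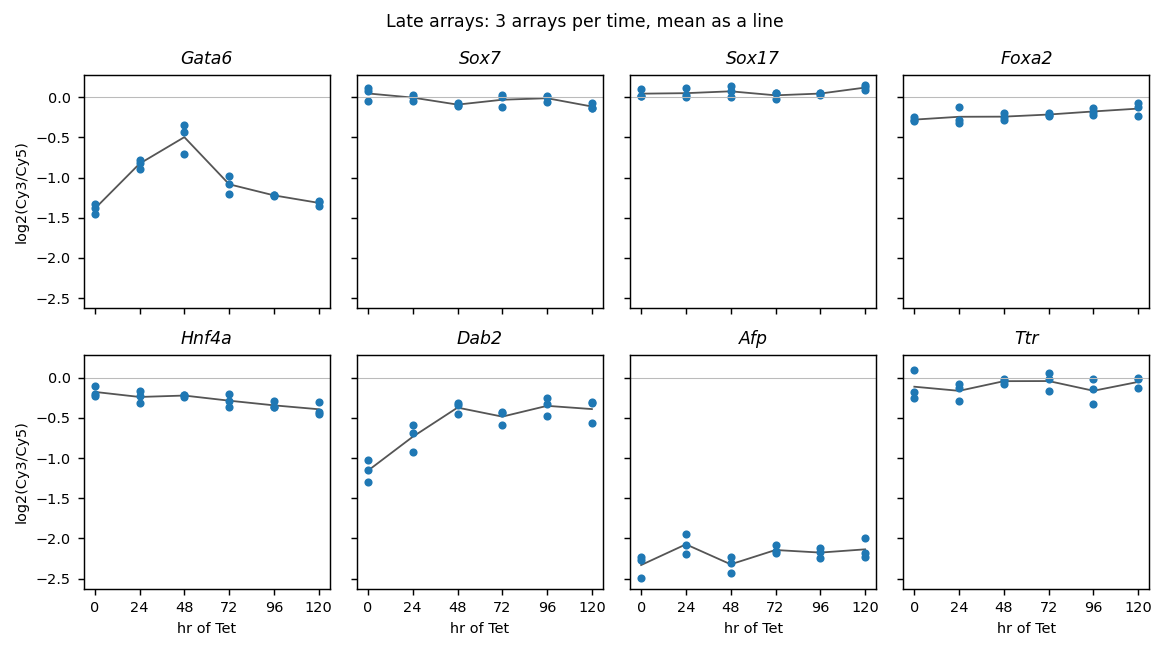
The late time course of the 8 genes, with hours of Tet on the horizontal axis and log2(Cy3/Cy5) on the vertical axis, which all panels share; points are single arrays (3 per time) and lines join their means. Gata6 climbs to -0.50 at 48 hr and is back at -1.32 by 120 hr, Dab2 moves from -1.16 to -0.37 at 48 hr and stays there, and the other 6 genes run nearly level.

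The signals behind these changes were low. The 95th percentile of the negative-control probes was 627 to 653 on the 0 hr arrays and 506 to 571 at later times, so the floor itself moved with the comparison to 0 hr. The Cy3 signal of Gata6 before background correction was 646 to 690.0 at 0 hr, 689.6 to 899 at 48 hr and 570.2 to 637 at 120 hr, above the negative controls on all 18 arrays. That of Dab2 was 588 to 595 at 0 hr, under the negative controls on all 3 arrays, and 542 to 661 from 48 to 120 hr, above them on all 12 arrays. The raw signals of Dab2 at 0 hr thus lie inside the range of the later ones. Its mean Cy5 signal was 602 at 0 hr and 603 at 48 hr. The size of its rise therefore depends on background correction and loess normalization within arrays, and the share of each step was not tested. What part the floor had in the rise of either gene was not tested. The comparison of 120 with 48 hr uses no 0 hr array. Between 24 and 48 hr, added after the data had been seen because it leaves the 0 hr arrays out as well, Gata6 changed by 0.33 ± 0.08 (adjusted p = 0.00659 by limma) and Dab2 by 0.36 ± 0.10 (adjusted p = 0.0146 by limma), both under 1.5-fold. Afp was lower by -0.25 ± 0.08 (adjusted p = 0.0517 by limma), and the other 5 genes differed by -0.09 to 0.12. None of 8 genes was called in that comparison (3.38% of all probes were), and 3 of 8 had an unadjusted p under 0.05 by limma. With the processed signals of the scanner software, the call of Dab2 was lost at every time (0.45 to 0.58) because the change stayed under 1.5-fold. With the authors' table it was lost at 72 hr (0.49) and 120 hr (0.58).

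Of the remaining genes, the transcription factors downstream of GATA were not called. Sox17 read between -0.03 and 0.15 on all 18 late arrays, and its largest change from 0 hr was 0.08 ± 0.05. Sox7 read between -0.14 and 0.12, with a difference at 120 hr of -0.16 ± 0.05 that passed the adjusted p (0.0196 by limma) and not the fold. Foxa2 read between -0.32 and -0.08, with differences from 0.04 to 0.14 ± 0.06. The visceral endoderm genes were not called either. Hnf4a differed by -0.22 ± 0.06 at 120 hr (adjusted p = 0.00589 by limma, a factor of 0.861), Ttr by at most 0.07 ± 0.09 in either direction, and Afp by 0.01 to 0.26 ± 0.08. The highest of these differences of Afp, at 24 hr, passed the adjusted p (0.026 by limma) and not the fold. The Cy3 signals of Afp and Ttr were under the negative controls on all 18 late arrays and those of Sox7 on 15 of 18, so that a change of these 3 genes was hardly detectable in this course. Sox17, Foxa2 and Hnf4a were above the negative controls on all 18.

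In the early course, Gata6 passed the test at 24 hr, Hnf4a passed it at 6 and 24 hr, and the other 6 genes at no time. Thus 2 of 8 genes were called at 1 or more times, where 9.62% of all gene probes were called. None of 8 was called by limma at 3 hr (0% of all probes) and none at 12 hr (0.593%), where 1 and 3 of 8 had an unadjusted p under 0.05, while 1 of 8 was called at 6 hr (2.21%) and 2 of 8 at 24 hr (9.02%).

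Gata6 read -1.82 and -1.80 at 0 hr, -1.54 and -1.70 at 3 hr, then -0.98 and -1.50 at 6 hr. It read -1.22 and -0.88 at 12 hr and -0.76 and -0.38 at 24 hr, above both 0 hr arrays at each time. Its change from 0 hr was 0.19 ± 0.19 at 3 hr, 0.56 ± 0.19 at 6 hr, 0.76 ± 0.19 at 12 hr and 1.24 ± 0.19 (SE, n = 2 per time) at 24 hr, and the adjusted p of limma was 0.00327 at 24 hr, 0.109 at 12 hr and 0.156 at 6 hr. At 6 hr the Cy3 signal of the sample (498 and 476) was near that of 0 hr (479 and 489), whereas the Cy5 signal of the reference was lower (599 and 729.6, against 749.6 and 930.4). At 24 hr Cy3 was 663 and 690.3, above both 0 hr arrays, and Cy5 was 806 and 704. With Cy3 alone Gata6 changed by 0.16 at 6 hr and was called at 12 hr (0.70, adjusted p = 0.00307 by limma) and at 24 hr (1.09). The change at 24 hr ran from 0.85 with Cy5 corrected for bleaching to 1.47 with the processed signals, and passed the test with both. At the time that both courses share, Gata6 changed by 1.24 in the early and by 0.56 in the late course. The courses were run on different designs, and this difference was not tested.

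Hnf4a read -0.41 and -0.34 at 0 hr, 0.61 and 0.95 at 6 hr, then 0.90 and 0.33 at 24 hr. Its change was 1.16 ± 0.22 at 6 hr (adjusted p = 0.0416 by limma) and 0.99 ± 0.22 at 24 hr (adjusted p = 0.0168 by limma). The reference channel moved with this value. The Cy5 signal, which holds the same RNA on every array, went from 625 and 589 at 0 hr to 452 and 426 at 6 hr and to 460.1 and 500.5 at 24 hr, whereas the Cy3 signal of the sample was 597 and 522 at 0 hr, 564 and 538 at 6 hr, then 634 and 616 at 24 hr. With Cy3 alone the changes at these times were 0.14 and 0.27, with Cy5 corrected for bleaching 0.47 and 0.14, and from the values of the authors 0.59 and 0.01, and none of them passed the test. On the late arrays Hnf4a differed by -0.06 ± 0.06 at 24 hr.

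**Figure D2:**
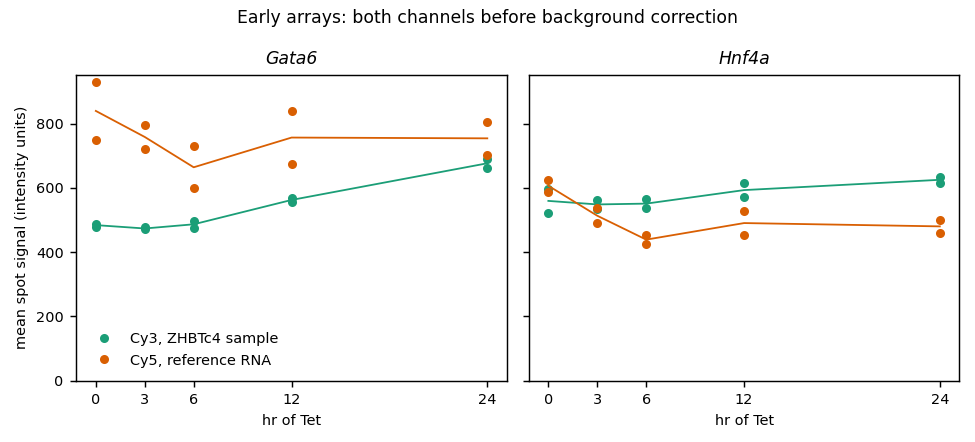
Mean spot signal of the Gata6 and Hnf4a probes on the 10 early arrays, in intensity units before background correction, against hours of Tet; green is Cy3 (the ZHBTc4 sample), orange is Cy5 (the reference RNA), and lines join the means of 2 arrays. For Gata6 the Cy3 signal is near its 0 hr level at 6 hr, where Cy5 is lower, and reaches 663 and 690.3 at 24 hr, while for Hnf4a the Cy3 signal stays between 522 and 634 and the Cy5 signal falls to 452 and 426 at 6 hr.

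Sox7 was lower on the early arrays at the last times. It read 0.07 and -0.22 at 0 hr, -0.39 and -0.59 at 12 hr, then -0.56 and -0.62 at 24 hr, below both 0 hr arrays at 12 and 24 hr. The difference at 24 hr was -0.51 ± 0.12 (adjusted p = 0.0167 by limma), short of 1.5-fold, with -0.84 and a call from the processed signals or the authors' table, but -0.23 with Cy3 alone and -0.24 with Cy5 corrected for bleaching, which missed the test. Its Cy3 signal was 468 and 449 at 0 hr and 437 and 464 at 24 hr, near the negative controls, whose 95th percentile was 401 to 426. Dab2, which rose on the late arrays, read -0.36 and -0.51 at 0 hr and -0.64 and -0.55 at 24 hr, a difference of -0.16 ± 0.11, against 0.42 ± 0.10 at the same time on the late arrays. Sox17 (at most 0.08 ± 0.15 in either direction), Foxa2 (-0.20 to 0.07 ± 0.11) and Ttr (-0.08 to 0.06 ± 0.11) showed no change that passed the test. For Afp both probes were uncalled, and at 24 hr the main probe differed by 0.19 ± 0.13 and the second probe by 0.33 ± 0.11.

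**Figure D3:**
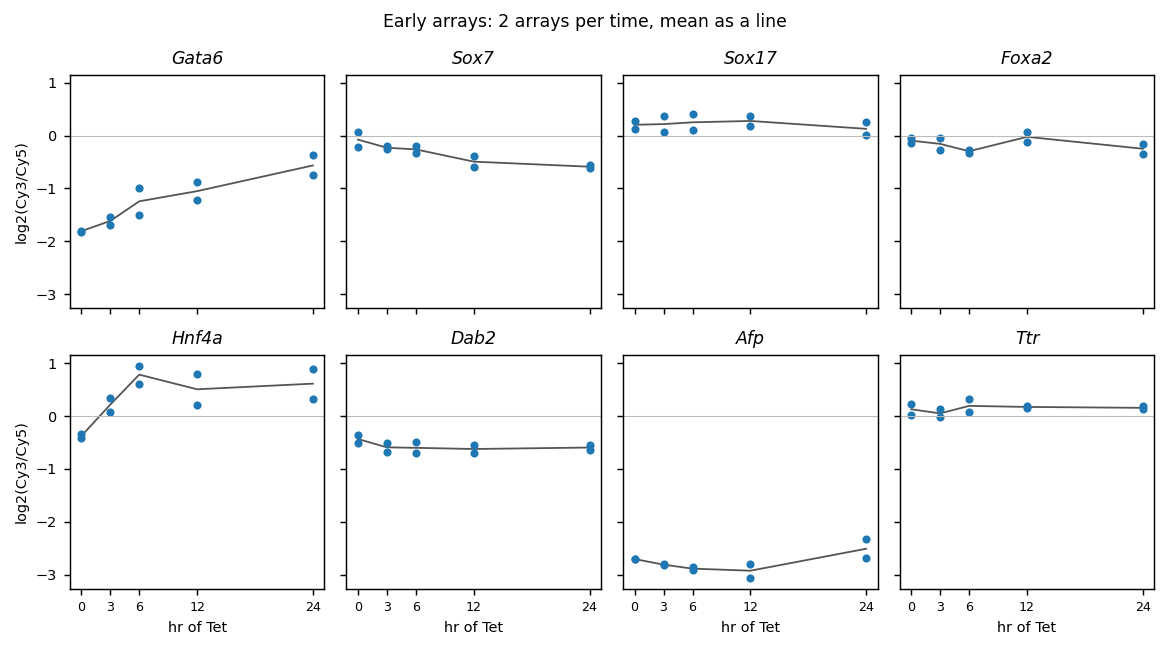
The early time course of the 8 genes on a shared vertical axis of log2(Cy3/Cy5), with hours of Tet below; points are single arrays (2 per time) and lines their means. Gata6 climbs from -1.81 at 0 hr to -0.57 at 24 hr, Hnf4a from -0.38 to 0.78 at 6 hr, and Sox7 goes from -0.08 to -0.59 at 24 hr.

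Lists of genes of related and other cell types, given for context, moved to different degrees in the late course. At 48 hr, where 5.5% of all probes rose and 4.79% fell, 10 of 12 measured trophectoderm genes rose (median change 2.32, against -0.01 over all probes), led by Krt18 (4.34 ± 0.23) and the transcription factor Gata2 (3.21 ± 0.05). Of 14 visceral endoderm genes 1 rose, the endocytic receptor Lrp2 (0.87 ± 0.12), and 1 fell, Apoe (-2.42 ± 0.07), with a median of -0.11. Of 11 parietal endoderm genes 3 rose and 3 fell (median 0.43). The basement membrane genes split: Col4a1 (1.21 ± 0.08) and Lamb1 (1.15 ± 0.11) rose while Lamc1 (-1.32 ± 0.30) and Lama1 (-1.14 ± 0.16) fell. Among 5 genes of the anterior visceral endoderm, Dkk1 rose (3.15 ± 0.11) and Lefty1 (-3.74 ± 0.08) and Otx2 (-2.91 ± 0.11) fell. Among 5 further primitive endoderm genes 1 fell, the metabolic gene Cth (-2.70 ± 0.07), and none rose. At 120 hr 2 of these 5 rose and 1 fell, where 20.7% of all probes were called in either direction. Pdgfra, a receptor that marks early primitive endoderm, was among those that rose by then (0.85 ± 0.10). Of the 14 visceral endoderm genes 1 rose and 3 fell at 120 hr (median -0.17). Of the 11 parietal endoderm genes 5 rose and 2 fell (median 0.38). Of 8 ES cell genes 6 fell at 48 hr, of 6 definitive endoderm and mesendoderm genes and 5 neural genes none was called, and of 5 fibroblast genes Vim rose (1.18 ± 0.13) and Fn1 fell (-2.24 ± 0.16). Pdgfra was also called on the early arrays at 24 hr (1.53 ± 0.26, adjusted p = 0.0057 by limma). It was the 1 gene called of 6 measured in its list, where 7.05% of all probes rose.

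The genes whose values followed Gata6 most closely over the 18 late arrays, among 3062 gene symbols with a range of at least 1 on the log2 scale, were Camkk2 (Pearson r = 0.929), Klk7 (0.913), Ptgr1 (0.907), Ska2 (0.895) and Fam72a (0.891). These correlations run over arrays of 6 time points that share their depth and floor, and none of the 5 genes is among the 9 or the lists above.

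RA gave a different picture. Gata6, Sox7, Sox17 and Foxa2 rose in all 4 lines, Dab2 and Afp were higher in all 4 without being called, and Hnf4a and Ttr were not called either. Thus 4 of 8 genes were called against LIF, all of them higher, where 5.87% of all gene probes were called. Each line has 1 array per medium, so the error is the spread of the 4 lines in their response.

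Gata6 read -1.64, -1.64, -2.06 and -2.33 with LIF in the episomal clone, the integrated clone, MG1.19 and 129.3, in this order, and 0.92, -0.09, 0.35 and 0.02 with RA. Every RA array lay above every LIF array. The mean change was 2.22 ± 0.19 (SE, n = 4 lines, 4.67-fold, adjusted p = 0.000314 by limma), and the lines ranged from 1.56 in the integrated clone to 2.57 in the episomal one. The Cy3 signals with LIF, 415 to 474, were close to the negative controls, whose 95th percentile there was 400.1 to 433. Over the alternatives the mean change ran from 2.11 to 2.87, the latter with the processed signals, and the call held in all 13.

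Foxa2, a pioneer factor of endoderm, read 0.01, 0.12, 0.11 and 0.19 with LIF in the same order and 2.05, 1.34, 1.96 and 2.54 with RA, again without overlap. It rose by 1.86 ± 0.16 (3.63-fold, adjusted p = 0.000316 by limma), with the largest change in 129.3 (2.35) and the smallest in the integrated clone (1.22).

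Sox17 read 0.48, 0.45, 0.32 and 0.04 with LIF and 3.09, 1.65, 1.78 and 0.70 with RA. The order of the lines was nearly kept: the episomal clone was highest and 129.3 lowest in both media. It rose by 1.48 ± 0.27 (2.79-fold, adjusted p = 0.00764 by limma), by 2.61 in the episomal clone and by 0.66 in 129.3.

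Sox7, the close relative of Sox17, showed the same spread among lines. It read 0.66, 0.48, 0.13 and -0.24 with LIF and 2.86, 1.62, 1.96 and 0.49 with RA, and the RA array of 129.3 lay below the LIF array of the episomal clone. It rose by 1.47 ± 0.24 (2.78-fold, adjusted p = 0.00465 by limma), by 2.21 in the episomal clone and by 0.73 in 129.3. Without MG1.19 the adjusted p of Sox7 (change 1.36) was 0.0578 and that of Sox17 (change 1.49) 0.0673, so that 2 of 8 genes, Gata6 and Foxa2, were called. The same 2 remained with the study's own error variance. The Cy3 signals of Sox7 with LIF, 419 to 500.4, were also close to the negative controls, and over the alternatives its change ran from 1.23 without the episomal clone to 2.19 with the processed signals.

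Dab2 read -0.91, -1.04, -0.83 and -0.82 with LIF and -0.03, -0.31, -0.58 and -0.77 with RA. It was higher with RA in 4 of 4 lines, by 0.48 ± 0.13 (adjusted p = 0.037 by limma), short of 1.5-fold. The difference was 0.88 and 0.74 in the episomal and integrated clones and 0.25 and 0.05 in MG1.19 and 129.3. Afp was higher in 4 of 4 lines by 0.36 ± 0.11 (adjusted p = 0.067 by limma) by its main probe, and its second probe differed by -0.02 ± 0.05, so the probes of Afp disagree. Hnf4a was lower in 4 of 4 lines, by -0.28 ± 0.10 (adjusted p = 0.0941 by limma), and Ttr differed by 0.03 ± 0.04. The Cy3 signals in this experiment were above the negative controls on all 12 arrays for 7 genes and on 11 of 12 for Afp. They reached 5463 for Foxa2, 2656 for Sox17, 1093 for Gata6 and 1051 for Sox7, where the 95th percentile of the negative controls was 399 to 433, while Ttr stayed at 478 to 603 and the main probe of Afp at 406 to 472.

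**Figure D4:**
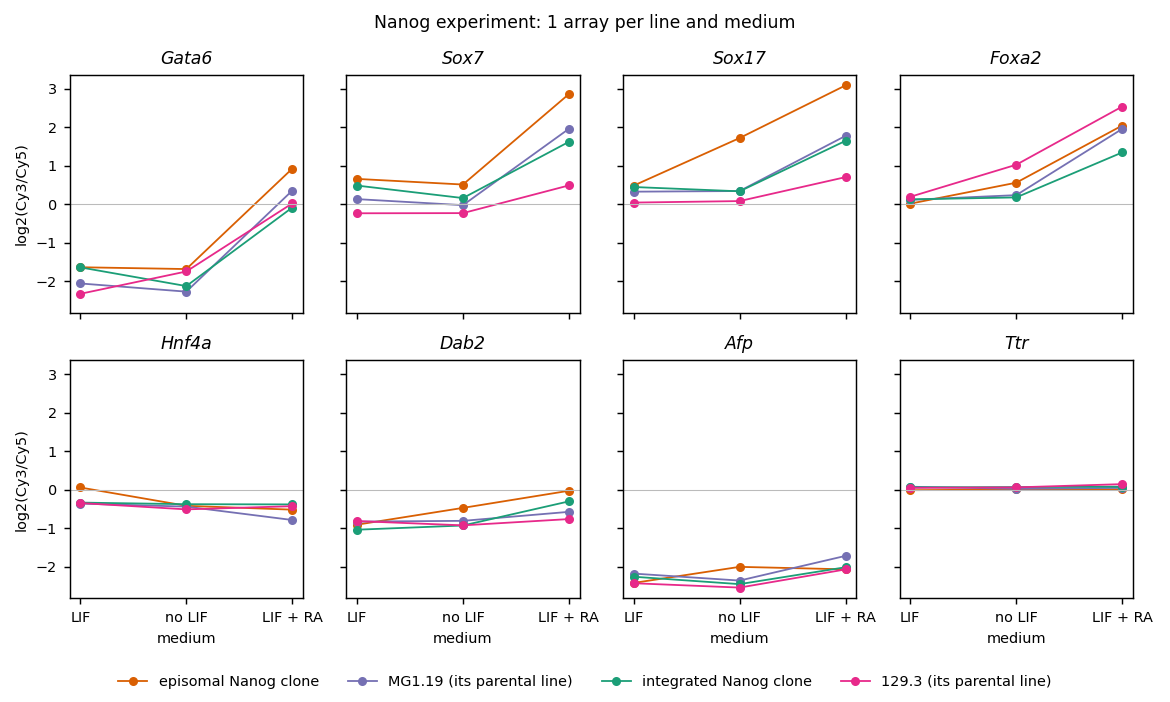
The 8 genes in the 4 lines (colors) and 3 media (horizontal axis), 1 array per point, on a shared vertical axis of log2(Cy3/Cy5). Gata6, Sox7, Sox17 and Foxa2 are higher with LIF and RA than with LIF in each line, and the episomal clone alone has a raised Sox17 value without LIF (1.72, against 0.08 to 0.34 in the other 3 lines).

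Withdrawal of LIF without RA called none of 8 genes, where limma called 1.04% of all gene probes. At an unadjusted p, 1 of 8 passed 0.05, Foxa2, which was higher in 4 of 4 lines (0.39 ± 0.16, adjusted p = 0.306 by limma), by 0.83 in 129.3, 0.55 in the episomal clone, 0.12 in MG1.19 and 0.05 in the integrated clone. Gata6 differed by -0.04 ± 0.19, with lines from -0.49 to 0.58. Sox17 differed by 0.30 ± 0.27, and this mean rests on the episomal clone, where it went from 0.48 to 1.72, while in the other 3 lines it changed by -0.11 to 0.04. The remaining 5 genes differed by -0.19 ± 0.10 (Hnf4a) to 0.11 ± 0.13 (Dab2). Compared with the medium without LIF, RA again called the same 4 genes (5.77% of all probes were called): Gata6 by 2.26 ± 0.19, Sox7 by 1.63 ± 0.24 and Foxa2 by 1.47 ± 0.16, and Sox17 by 2.27-fold (adjusted p = 0.0205 by limma). Both comparisons share the RA arrays. The call of Sox17 was lost without MG1.19 (1.10, adjusted p = 0.147 by limma) and without the integrated clone (1.14, adjusted p = 0.0959 by limma).

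Set beside these genes, 6 of 11 parietal endoderm genes rose with RA and none fell (median 0.83, against -0.01 over all probes, where 4.64% rose and 1.23% fell), among them Plat, a protease typical of parietal endoderm (2.23 ± 0.19), and the basement membrane genes Col4a1 (1.66 ± 0.22), Lamb1 (1.55 ± 0.31) and Sparc (1.44 ± 0.24). Of 15 visceral endoderm genes 1 rose, the endocytic receptor Cubn (1.75 ± 0.38), and 1 fell, Apoe (-0.84 ± 0.08), with a median of 0.16. Among 5 anterior visceral endoderm genes Dkk1 rose (2.07 ± 0.16) and Otx2 fell (-1.40 ± 0.22), and among 6 further primitive endoderm genes Cth fell (-1.55 ± 0.38). Foxa1, the relative of Foxa2, rose by 1.63 ± 0.13 as the 1 called gene of 6 definitive endoderm and mesendoderm genes. Markers of other cells moved as well: 7 of 13 trophectoderm genes rose (median 0.72), led by Krt18 (3.12 ± 0.41) and Esx1 (2.91 ± 0.23), 4 of 5 fibroblast genes rose (median 0.71, Vim 1.48 ± 0.39), and 5 of 8 ES cell genes fell (median -0.88), while none of 5 neural genes was called. Pou5f1 fell by 1.38 ± 0.37 on average, and read 2.42 with RA in the integrated clone against 0.49 to 0.82 in the other 3 lines. What part other cell types or the level of Pou5f1 had in the values of the 8 genes was not tested.

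Gata6 had the largest mean change with RA. Over the 12 arrays the genes most like it, among 3758 gene symbols with a range of at least 1, were Stra6 (Pearson r = 0.987), Rarb (0.982), Gprc5a (0.971), Stom (0.967) and Hic1 (0.965). Rarb encodes a retinoic acid receptor and Stra6 a membrane receptor that takes up retinol. With 4 RA arrays against 8 others, any gene that separates RA from the rest scores high by this measure.

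The last comparison asked whether the clones labelled as carrying added Nanog differed from their parental lines in the 8 genes. Over the 6 pairs of a clone and its parental line (2 clones in 3 media), none of the 8 was called by limma, where 0.00488% of all probes were called, and at an unadjusted p under 0.05 there were 3, Sox7, Sox17 and Hnf4a. That percentage refers to calls, and the share of all probes at the unadjusted p was not counted. Pairs of 1 clone share that clone, so that 6 pairs stand for 2 clones, and pairs follow the labelled strains, whereas the series description gives other parental lines. Sox7 was higher in the clone in 6 of 6 pairs, by 0.72, 0.39 and 1.13 in the integrated clone with LIF, without LIF and with RA, and by 0.53, 0.54 and 0.90 in the episomal clone, a mean of 0.70 ± 0.10 (adjusted p = 0.0704 by limma). Sox17 was also higher in 6 of 6 pairs, by 0.40, 0.25 and 0.94 in the integrated clone and by 0.16, 1.38 and 1.31 in the episomal clone, a mean of 0.74 ± 0.19 (adjusted p = 0.107 by limma). Hnf4a was higher in 6 of 6 by 0.15 ± 0.06 (adjusted p = 0.241 by limma).

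Gata6 was higher in 4 of 6 pairs and differed by 0.30 ± 0.15 (adjusted p = 0.329 by limma). These 4 were the integrated clone with LIF and the episomal clone in each medium, where the Nanog probe read lower than in MG1.19. In the media without RA the Cy3 signals of Gata6 were 415 to 474, close to the negative controls (95th percentile 400 to 433). Whether Nanog had a part in these differences was not tested. Foxa2 was higher in 2 of 6 (-0.30 ± 0.20), and it was lowest relative to the parental line in the integrated clone without LIF (-0.85) and with RA, where it read 1.34 against 2.54. Dab2 was higher in 3 of 6 (0.17 ± 0.11), Afp in 4 of 6 (0.01 ± 0.09) and Ttr in 2 of 6 (-0.03 ± 0.03).

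**Figure D5:**
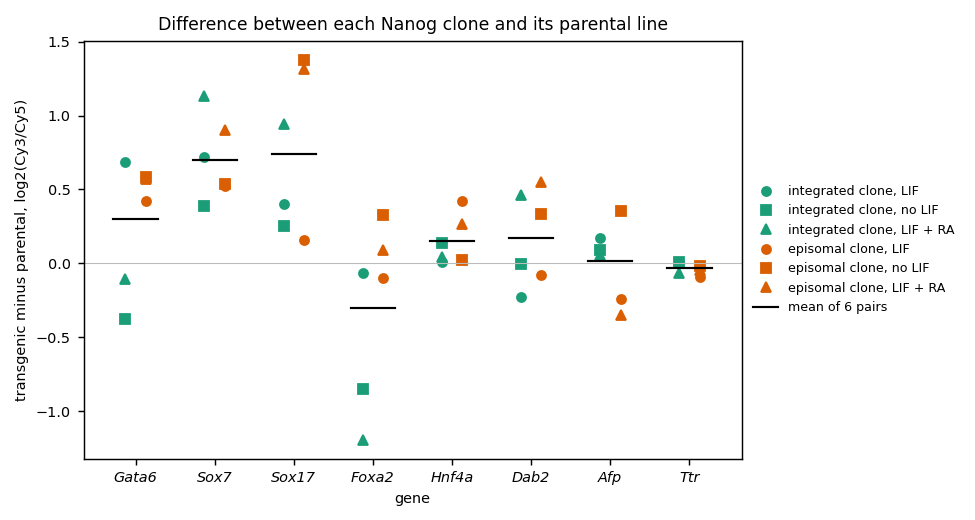
Difference between each Nanog clone and its parental line in log2(Cy3/Cy5) for the 8 genes (horizontal axis); green is the integrated and orange the episomal clone, the marker shape gives the medium, and the black bar is the mean of 6 pairs. All 6 differences of Sox7 (0.39 to 1.13) and of Sox17 (0.16 to 1.38) are above 0, whereas those of Foxa2 lie on both sides of 0.

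The size of the RA response was also compared between lines, on the 4 differences of RA from LIF. Strain and transgene were fitted together, and no combination of them was repeated. The standard errors therefore lean on the spread that limma borrows from other probes. Between transgenic and parental lines it differed by 0.85 ± 0.19 for Sox17, 0.66 ± 0.11 for Dab2, 0.39 ± 0.11 for Sox7, -0.32 ± 0.26 for Gata6 and -0.47 ± 0.35 for Foxa2. Between the 129SvEv-Tac and 129Sv pairs it differed by -1.10 ± 0.19 for Sox17, -1.09 ± 0.11 for Sox7, -0.54 ± 0.26 for Gata6 and, in the other direction, 0.44 ± 0.12 for Hnf4a. The genes not named differed by -0.11 to -0.02 in the first comparison and by -0.17 to 0.06 in the second. None of 8 genes was called in either comparison, where limma called 0% of all probes. An unadjusted p under 0.05 was reached by 3 of 8 in each, Sox17, Dab2 and Sox7 in the first and Sox17, Sox7 and Hnf4a in the second. How many of all probes reached it was not counted. Each strain's arrays have their own day of feature extraction, and the 129Sv pair comes from the line with large T antigen. Strain, day and this antigen therefore cannot be told apart.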

How the data were processed

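Scanner files as deposited for the 40 arrays (Agilent Feature Extraction 7.5.1, per the submitters' processing notes) hold mean, background and processed signals in intensity units (two-color arrays, Cy3 sample, Cy5 reference, no dye swap). The authors also deposited a table of normalized log10 values per design. One of its columns counts as score values, since 10 cells of the table as deposited hold a code for a missing value, set to missing here. The number of arrays limits the precision.

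Mean signals were corrected by normexp (offset 50) and loess within arrays in limma 3.58.1 (R 4.3.3), outlier spots were set to missing, and spots of a probe were averaged. Where a gene had several probes, the one brightest over both channels together is shown. For Afp this probe is brighter in the reference and dimmer in the samples than the second one. Times were fitted as groups, media with line as a term, and clones as 6 differences from the parental line. Tests were two-sided with Benjamini-Hochberg adjustment over all gene probes. The fits of times, media and clones were also run on simulated arrays with independent noise, which leaves out any correlation between arrays. The response by line was not simulated. Values after ± are standard errors.

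The 9 genes, the context lists and the alternatives were chosen with earlier results of these data known. The 9 genes were to be named in every comparison, but Gata4 had no probe, and genes without a call are in part given as ranges. Of each context list at most 4 called genes with the largest change are named, and the 5 best correlated genes are given for the gene with the largest change in the late course and with RA.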

Additional observations from a re-analysis of the deposited data

Results flagged for a closer look

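Among 32 sets of 4 or 6 differences examined for a value far from the others, 4 had one, and chance gives about 1 in 20. The sets share the same arrays and are not separate trials, so no excess can be read from this count. Sox17 changed by 1.24 without LIF in the episomal clone, far from the other 3 lines (nearest 0.04), and by 0.62 from no LIF to RA in 129.3, far below the others (nearest 1.31). Afp changed by 0.42 without LIF in the episomal clone (nearest -0.11), with a signal close to the negative controls. Ttr changed by -0.0544 without LIF in MG1.19 (nearest 0.01). Each of these values comes from 1 array per line and medium.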

How the results depend on the processing

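With 8 genes, counts of called genes kept within 1.5 times their value in 130 of 138 alternatives. This number includes alternatives that could hardly move a count. Quantile scaling of the intensities between arrays leaves the ratios as they are, so it could change neither a count nor a call. A count of 0 that stayed at 0 was scored as kept, and some left-out arrays lay outside the comparison. An equal count need not hold the same genes. With the processed signals the late count was 1 (Gata6). The early count was 1 (Gata6) with Cy3 alone and with Cy5 corrected for bleaching, and 0 with the study's error variance, and leaving out 1 array in turn gave 1 to 2, with 1 without the first 0 hr array. With the study's error variance RA called 2 genes against LIF and 2 against no LIF, and leaving out 1 line in turn gave 2 to 5 against LIF, with 2 without MG1.19. Of 17 single changes that were called, all kept their direction in 326 alternative fits and the call was lost in 32, of which Hnf4a on the early arrays had 17: leaving out either array of 0 hr gave an adjusted p of 0.206 to 0.279 at 6 hr and 0.0825 to 0.0886 at 24 hr by limma, and leaving out an array of 3 or 6 hr, or the first array of 24 hr, also took a call of it away. Gata6 at 24 hr of the early course had an adjusted p of 0.195 with the study's error variance. At 24 hr of the late course Gata6 was called with the authors' table (0.62), with Cy3 alone (0.79), and without the first array of 0 hr or the third of 24 hr (0.59 each). Dab2 was called with RA without 129.3 (0.62). With the replicate block the late count stayed at 2 and the early count at 2. Over all probes the block moved the late count from 5234 to 5244 and the early count from 4041 to 4554. Same-numbered arrays had residual correlations from -0.43 to 0.748 (median 0.193, other numbers -0.133) on the late and from -0.136 to 0.337 (median 0.119, other numbers -0.119) on the early arrays, over 0.1 in 28 of 45 and 12 of 20 pairs. In all, 12 of 18 late and 10 of 10 early arrays correlated best with their own number, which is a hint of pairing from the data, but the labels give no shared batch and the numbers were not treated as pairs. The second brightest probe exists for Afp alone. The filter on dim probes removed Afp, Sox7 and Ttr on the late arrays and left 5 of 8 genes. A block for the day of feature extraction from the images could not be run, since the arrays of each course carry a single day. The response by line could not be tested without 1 line, and it was not run with the study's variance.

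Over all probes, the counts under the alternatives ran from 4640 to 6675 (5234 as reported) on the late arrays, from 0 to 5435 (4041) on the early arrays, from 1140 to 2834 (2407) for RA against LIF, from 864 to 2836 (2368) for RA against no LIF, from 0 to 543 (425) for no LIF and from 0 to 1695 (2) for the pairs. These counts run over unequal numbers of probes. The lowest late count came from the authors' table, with 16292 probes against 21045 as reported, so it is not a lower share. Each lowest count but that of the late arrays was reached with the study's error variance, and for the pairs with other alternatives as well. Signals close to the negative controls limit what change can be seen, and 1 array per line and medium leaves no check within a line.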
